A study of Mus musculus with 7 samples.

Results

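Heat shock proteins and chaperonins keep other proteins folded. HSP70 and HSP90 bind unfolded or unstable clients and use ATP to release them, J-domain proteins (DNAJ) hand clients to HSP70 and start its ATP hydrolysis, BAG proteins and the HSP110 branch make HSP70 let go of its nucleotide, small heat shock proteins hold unfolding proteins without ATP, and the chaperonin TRiC, a double ring of TCP1 and CCT subunits, folds actin and tubulin. Many of these genes are switched on together by the transcription factor HSF1 when proteins unfold, and a growing oocyte, which stores proteins and mRNAs for the embryo, transcribes a large set of them without stress. The genes were chosen by symbol from the RNA-seq table (those starting with Hspa, Hspb, Hsp90a, Dnaj, Cct or Bag with a number, and *Hsph1* and *Tcp1*). The pattern matched 82 gene symbols. Of these, 6 genes of the endoplasmic reticulum or mitochondrion and 3 pseudogenes were set aside, which left 73 members among the 22877 genes of the table.

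Each RNA-seq library was made from 5 pooled oocytes, taken from secondary follicles of C57BL/6J mice that were 8 weeks old. The *Mfn1*-/- mice carried floxed *Mfn1* and a *ZP3-Cre* transgene, whose promoter is active in growing oocytes, and *Mfn1* encodes a protein of mitochondrial fusion. WT mice were the controls. There were 3 *Mfn1*-/- and 4 WT libraries. The values used here are the authors' mean of normalized counts for each genotype, with no values of single libraries, and the authors' own test columns were not used. No difference therefore has a replicate check here, no p-value is given, and a difference between the means cannot be compared with the spread between libraries. In these pooled cells, fewer transcripts of a gene per oocyte cannot be told apart from a change in the makeup of the sample. The study also reported that secondary follicles of *Mfn1*-/- ovaries were shifted towards types with fewer layers of granulosa cells. The follicle types behind each library are not given, and the part of follicle stage in the differences was not tested.

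*Mfn1* was lower in the libraries labelled *Mfn1*-/-, with a mean of 0.0577 against 0.616 in WT oocytes. Oocyte genes marked the samples: 17 of 18 oocyte markers had a mean of at least 1 over the libraries, and the 18 summed to 5240 (*Mfn1*-/-) and 5023 (WT) normalized counts, with 13 higher and 5 lower in *Mfn1*-/- oocytes. Of these, *Sohlh1* was past 2-fold, at 3.68 against 0.105. In what follows, values given in pairs are means with *Mfn1*-/- oocytes first, and a value in brackets after them is the log2 fold change. The 13 granulosa cell markers with a row summed to 3.33 and 3.64, 3 of them higher and 10 lower in *Mfn1*-/- oocytes. The FSH receptor gene *Fshr* was at 0.0160 and 0.0171. Most of both sums came from *Inha*, at 1.87 against 0.954 (0.90), and *Esr2*, at 0.929 against 1.86 (-0.93), which differed in opposite directions, and the other 11 had a mean below 1. The 6 theca and stroma markers with a row summed to 0.223 and 0.221. Of the 5 blood and endothelial markers with a row, *Cd68* was the exception, at 7.58 and 0.672, with the other 4 lower in *Mfn1*-/- oocytes. The part of such cells in the results was not tested. The 6226 genes whose mean reached 1 are called the expressed genes. Their median log2 fold change was 0.16, so that a value of 0 lies slightly below their middle, and members between 0 and 0.16, *Hsp90ab1*, *Hspa4*, *Cct3* and *Dnajc30* among them, turn to lower in *Mfn1*-/- oocytes when that median is subtracted.

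Promoter sequences are shown for 5 members whose windows hold the heat shock element. HSF1 binds inverted repeats of the letters GAA. The windows were searched for 2 adjoining units, GAANNTTC or TTCNNGAA, each of which reads the same on both strands, and for 3 adjoining units, GAANNTTCNNGAA or its reverse complement TTCNNGAANNTTC, each of which holds 2 overlapping pairs. At least 1 pair was found in the windows of 18 of the 59 members with a promoter in the RefSeq table (30.5%), and in 15.1% of the 13573 genes of the expression table that have a promoter there. A run of 3 units was found in 2 members, *Hsph1* and *Dnajb6* (3.39%), and in 0.567% of those 13573 genes. Capitals mark the pairs or runs, and each sequence ends before a RefSeq start of transcription and is written 5′ to 3′ on the strand of the gene. The sequences of *Dnajb4*, *Dnajb6* and *Dnaja1* lie inside the GENCODE span of the gene, so that start is not the outermost one. *Hspb1* (chr5:135887762-135887869, plus strand) is shown as the member furthest above WT among the expressed ones, and *Dnajb4* (chr3:152193846-152193899, minus strand) as the one furthest below.
Hspb1: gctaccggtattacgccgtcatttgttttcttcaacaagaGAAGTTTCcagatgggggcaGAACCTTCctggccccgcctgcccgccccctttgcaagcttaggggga
Dnajb4: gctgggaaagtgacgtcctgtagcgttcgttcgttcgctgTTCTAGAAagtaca
*Dnajb6* (chr5:29735812-29735897, plus strand), *Dnaja1* (chr4:40722304-40722391, plus strand) and *Hspa1b* (chr17:34959295-34959382, minus strand) hold the element as well, and their genotype means were close.
Dnajb6: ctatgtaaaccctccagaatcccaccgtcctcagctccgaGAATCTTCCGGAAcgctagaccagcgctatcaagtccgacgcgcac
Dnaja1: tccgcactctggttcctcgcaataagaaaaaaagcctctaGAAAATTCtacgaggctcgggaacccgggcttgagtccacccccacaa
Hspa1b: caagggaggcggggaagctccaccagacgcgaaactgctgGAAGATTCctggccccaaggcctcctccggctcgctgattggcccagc
The upstream windows of *Hspa1b* and its neighbour *Hspa1a* share 247 of 250 bases. A match describes the letters only, and no binding of HSF1 was measured.

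The heat shock and chaperonin genes as a group differed little between the genotypes. Of the 73 members, 38 were higher and 34 lower in *Mfn1*-/- oocytes, and 1 had equal means. Of all 22877 genes, 12973 were higher and 9810 lower. Past 2-fold, 3 members were higher (4.11%, against 4.89% of all genes) and 1 was lower (1.37%, against 2.76% of all genes). The median log2 fold change of the members was 0.02, against 0.04 over all genes. Among the 40 members with a mean of at least 1, 1 was past 2-fold higher (2.5%, against 5.49% of the expressed genes) and 1 past 2-fold lower (2.5%, against 3.24%), their median was 0.06 against 0.16, and 85% lay within 1.5-fold against 76.8% of the expressed genes. These shares were near or below the background. The 4 members past 2-fold were *Hspb1*, *Dnajb3* and *Hspbp1*, which were higher, and *Dnajb4*, which was lower.

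**Figure D1:**
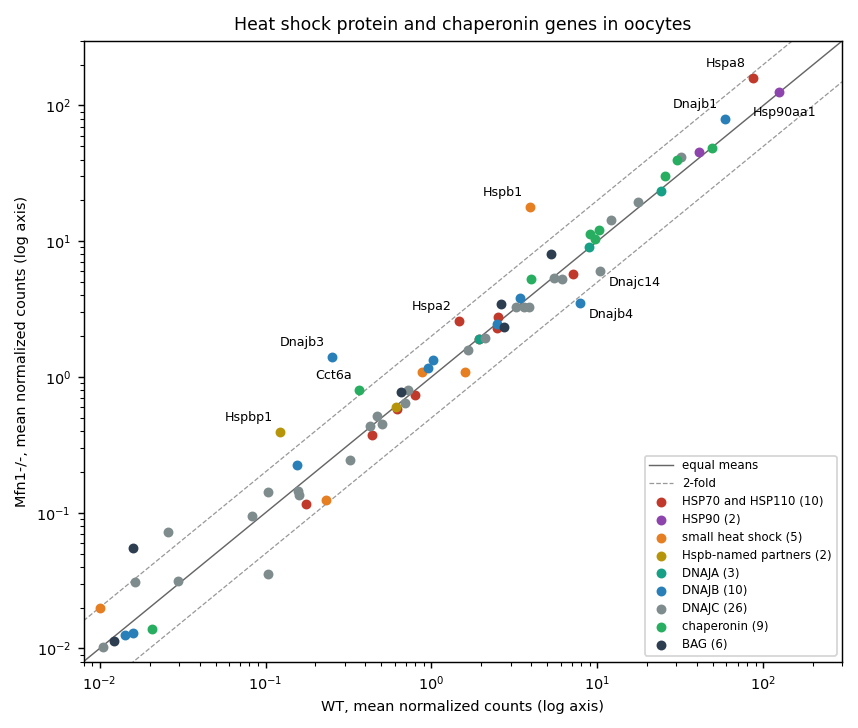
Mean normalized counts of the 73 members in WT (x axis) and Mfn1-/- oocytes (y axis), both on log axes, coloured by family with the number of members in brackets. Each point is 1 gene, the solid line marks equal means and the dashed lines a 2-fold ratio without a pseudocount, and most points lie close to the solid line, with 6 points above the upper and 2 below the lower dashed line.

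Summed over the members, the means came to 778 and 639.5 normalized counts, or 0.546% and 0.491% of the table. The ratio of the sums was 1.22, against 1.10 for the whole table. *Hspa8* alone made up 52% of the difference, and without it the ratio of the sums was 1.12. These sums leave out near-identical pseudogenes with rows of their own, which are described below. Those of *Hspa8* summed to 532 and 255, and those of *Hsp90aa1* to 391 and 382. The sums, shares and ratios of the members therefore depend on how reads were divided between members and copies. Of the 13 members with a mean of at least 10, 10 were higher in *Mfn1*-/- oocytes, 8 of them above the median of the expressed genes, 2 were lower and *Hsp90aa1* was equal. Of the expressed genes, 65.4% were higher, and no share was computed for genes with a mean of at least 10.

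**Figure D2:**
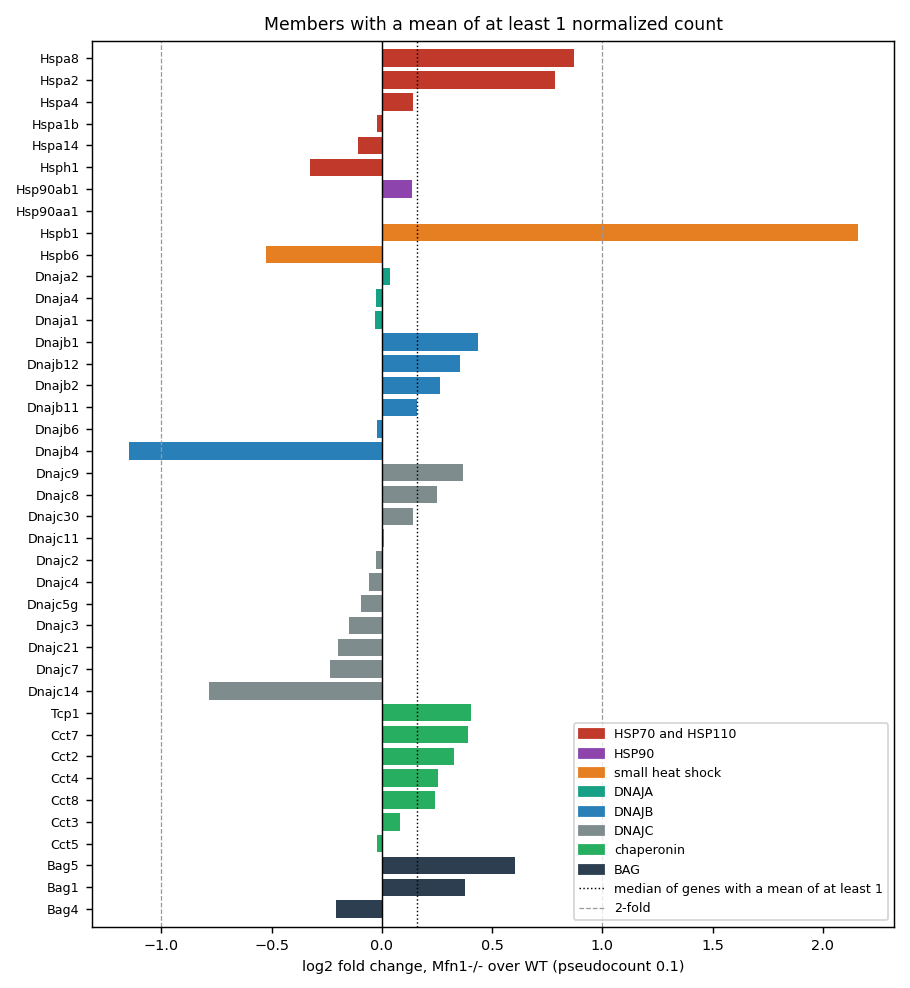
Log2 fold change of Mfn1-/- over WT (x axis, pseudocount 0.1) for the 40 members with a mean of at least 1, ordered by family and value. The dotted line is the median of the expressed genes, 0.16, and the dashed lines mark 2-fold, which Hspb1 (2.16) and Dnajb4 (-1.15) pass.

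Among the small heat shock proteins, *Hspb1* stood apart. It encodes HSP25 (HSP27 in humans), a stress-induced holdase that also binds actin, and its gene spans positions 135887919 to 135889563 of chromosome 5 (GRCm38). It was at 17.9 against 3.93 (2.16), the highest log2 fold change of the members with the pseudocount of 0.1, while without a pseudocount *Dnajb3* was higher (2.47 against 2.19). Among the 1661 genes with a mean within 2-fold of that of *Hspb1*, 0.542% had a log2 fold change as high. The other members of the family did not share this difference. *Hspb6*, the muscle-enriched HSP20, was at 1.08 against 1.60 (-0.53), and *Hspb3*, a partner of HSPB2 in muscle, at 0.125 against 0.230 (-0.55). *Hspb8*, which acts with BAG3 in selective autophagy, was at 0.0199 and, in WT oocytes, at the lowest value of the table, 0.01. *Hspb11*, which carries the family name but encodes the intraflagellar transport protein IFT25, was at 1.09 against 0.876 (0.29). Exons of *Hspb6* overlap those of *Lin37* and *Proser3* on the opposite strand. The study's methods name Smart-Seq2 cDNA and Nextera XT libraries with no strand-specific step. Reads from such overlaps may therefore have been counted for either gene.

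The pattern also matched *Hspbp1* and *Hspbap1*, which are partners of chaperones and not small heat shock proteins. *Hspbp1*, a nucleotide exchange factor of HSP70, was at 0.395 against 0.123 (1.15), and the log2 fold change was 0.99 after the median of the expressed genes was subtracted. At such low means, 6.45% of the 4741 genes with a mean within 2-fold of its own were as high. *Hspbap1*, which binds HSPB1, was at 0.604 and 0.612 (-0.02).

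Among the HSP70 and HSP110 genes, 3 of 10 were higher and 7 lower in *Mfn1*-/- oocytes, none past 2-fold, and the median was -0.10. Over the whole table, 12973 of 22877 genes were higher, 4.89% were past 2-fold higher and 2.76% past 2-fold lower. Only 6 of the 10 had a mean of at least 1, and most of the lower ones lay close to 0. *Hspa8*, the constitutive HSC70 that serves folding, clathrin uncoating and chaperone-mediated autophagy, spans positions 40800984 to 40810087 of chromosome 9. It was at 159 against 87 (0.87), short of 2-fold. Of the 368 genes with a mean within 2-fold of its own, 3.53% were as high. *Hspa2*, an HSP70 best known from spermatocytes, was at 2.59 against 1.46 (0.79), a difference that 11.5% of the 3107 genes near its mean reached.

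The stress-inducible HSP70 genes did not share the higher mean of *Hspa8*. *Hspa1b* was at 1.90 and 1.93 (-0.02), and *Hspa1a* at 0.375 and 0.439 (-0.18). These intronless neighbours on chromosome 17 match over 2201 bases at 99.2% identity, so that reads could have been divided between them. The HSP110 genes, which act as nucleotide exchange factors of HSP70, lay around 0 or below it, with *Hspa4* at 2.78 and 2.51 (0.14), *Hsph1* at 5.70 and 7.17 (-0.33) and *Hspa4l* at 0.581 and 0.624 (-0.09). *Hspa14*, an HSP70 of the ribosome-associated complex, was at 2.30 and 2.49 (-0.11). *Hspa13*, an HSP70 of the endoplasmic reticulum, was at 0.738 and 0.801 (-0.10), and *Hspa12a* at 0.115 and 0.176 (-0.36).

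HSP90 was level in both genotypes. *Hsp90aa1*, the inducible form, had a mean of 125 in both, and *Hsp90ab1*, the constitutive form, 45.1 and 41 (0.14). Both lay below the median of the expressed genes.

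Several members have processed pseudogenes whose transcripts are near-identical to their own, and these have rows of their own in the table. How reads with several matches were counted is not given, so a member and its copies cannot be told apart where they share sequence. For *Hspa8* there were 4 copies with a row, all higher in *Mfn1*-/- oocytes. The most similar, *Gm15459* (chromosome 5, 5781615 to 5783555), matches over 1941 bases at 99.7% identity and was at 460 against 218 (1.08). *Gm8355* was at 68.5 against 35.4 (0.95), *Gm8337* at 2.02 against 0.842 (1.17) and *Gm6210* at 1.74 against 0.832 (0.98). Summed with its copies, *Hspa8* had a log2 fold change of 1.01, just past 2-fold.

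Copies of other members also have rows. The copy of *Hspb1*, *Hsp25-ps1* (chromosome 13, 45078498 to 45079127), matches over 630 bases at 99.4% identity and was at 24 against 6.39 (1.89), and the sum of both rows gave 2.01. For *Hsp90aa1*, the copy *Gm12346* was at 314 and 310 (0.02), *Gm5844* at 72.3 and 67.8 (0.09) and *Gm5511* at 4.23 and 4.61 (-0.12). For *Dnaja1*, the copy *Gm15542* was at 243 and 244 (-0.01) and *Gm7816* at 126 and 130 (-0.05). The third copy of *Dnaja1*, *Gm6335*, differed at low means, 0.700 against 0.286 (1.05). *Dnajb6* had 5 copies, between -0.17 and 0.45, and with them its sum had a log2 fold change of 0.24 against -0.02 for its own row.

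**Figure D3:**
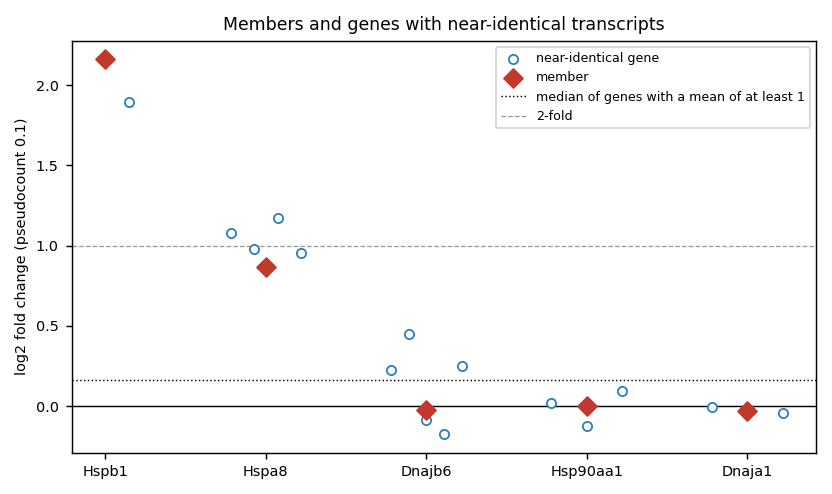
Log2 fold change (y axis, pseudocount 0.1) of 5 members (diamonds) and of the genes whose transcripts match theirs over at least 300 bases at 95% identity or more and that have a mean of at least 1 (circles). The copies of Hspb1 and Hspa8 lie between 0.95 and 1.89, those of Hsp90aa1 and Dnaja1 between -0.12 and 0.09.

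The J-domain proteins made up 39 of the 73 members, and 19 were higher and 20 lower in *Mfn1*-/- oocytes, their median being -0.0039. The 3 DNAJA proteins, general co-chaperones of HSP70, were level. *Dnaja1* was at 23.6 and 24.1 (-0.03), *Dnaja2* at 9.10 and 8.86 (0.04) and *Dnaja4* at 1.89 and 1.93 (-0.03).

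The DNAJB genes differed most among themselves, from -1.15 to 2.09. *Dnajb4*, a type II J-domain protein (chromosome 3, 152178511 to 152210302), was at 3.49 against 7.86 (-1.15), and 2.5% of the 2040 genes with a mean within 2-fold of its own were as low. Its paralog *Dnajb1*, the main HSP40 partner of HSP70 in the heat shock response, lay in the other direction, at 79.7 against 58.8 (0.44), a difference that 19.3% of the 570 genes near its mean reached. *Dnajb3*, an intronless gene known from the testis (chromosome 1, 88204732 to 88205782), was at 1.40 against 0.253 (2.09), and 1.72% of the 4007 genes near its mean were as high. *Dnajb6*, which holds back the aggregation of polyglutamine proteins, was at 2.46 and 2.5 (-0.02).

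Of the other DNAJB genes, *Dnajb2*, a neuronal J-domain protein with ubiquitin-interacting motifs, was at 1.16 and 0.950 (0.26). *Dnajb12* and *Dnajb14*, paired in the membrane of the endoplasmic reticulum, were at 1.33 against 1.02 and at 0.225 against 0.155. Both had a log2 fold change of 0.35 with the pseudocount, and of 0.38 and 0.54 without it. *Dnajb11*, a co-chaperone of BiP, was at 3.83 and 3.42 (0.16), at the median of the expressed genes. *Dnajb5* and *Dnajb13* were below 0.02 in both genotypes.

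The 26 DNAJC genes, which carry a J domain in otherwise unlike proteins, had a median of -0.02, none past 2-fold. The lowest was *Dnajc14*, a protein of the endoplasmic reticulum that acts on receptor export, at 5.99 against 10.4 (-0.79), and 4% of the 1773 genes near its mean were as low. Its exons overlap those of *Sarnp* on the same strand and of *Ormdl2* and *Tmem198b* on the opposite strand. The highest log2 fold change among DNAJC genes with a mean of at least 1 was that of *Dnajc9*, a histone chaperone, at 41.4 against 32.1 (0.37). *Dnajc8*, a spliceosome-associated protein, was at 14.4 and 12.1 (0.25), and *Dnajc30*, a mitochondrial protein, at 19.5 and 17.7 (0.14).

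The other DNAJC genes with a mean of at least 1 lay close to 0 or slightly below it, as did the median of all 26. *Dnajc2*, the partner of HSPA14 at the ribosome, was at 5.38 and 5.48 (-0.03), *Dnajc21*, a ribosome biogenesis factor, at 5.29 and 6.09 (-0.20), and *Dnajc7*, a tetratricopeptide protein that binds both HSP70 and HSP90, at 3.26 and 3.85 (-0.23). *Dnajc3*, the p58IPK inhibitor of eIF2 alpha kinases, was at 3.26 and 3.62 (-0.15). *Dnajc11*, of the mitochondrial contact site complex, was at 3.26 and 3.24 (0.01), *Dnajc4* at 1.59 and 1.66 (-0.06) and *Dnajc5g*, a cysteine string protein of the testis, at 1.95 and 2.09 (-0.10). The remaining 15 DNAJC genes had means under 1. Among them *Dnajc12*, a co-chaperone of aromatic amino acid hydroxylases, was at 0.0716 and 0.0259 (0.45), and *Dnajc5b* at 0.0351 and 0.103 (-0.59), and both exceed a 2-fold ratio of means only without a pseudocount or with a pseudocount of 0.01. The members of the endoplasmic reticulum (9 genes, median -0.09) and of the mitochondrion (3 genes, median 0.01) that the pattern matched included none past 2-fold.

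The subunits of the TRiC chaperonin differed by little and mostly in 1 direction. Of the 8 subunits, 7 were higher in *Mfn1*-/- oocytes, as were 65.4% of the expressed genes, and 6 lay above the median of those genes. Their median log2 fold change was 0.29, or 0.13 above that of the expressed genes. *Tcp1* (CCT1) was at 40 against 30.2 (0.40), *Cct7* at 5.23 against 3.96 (0.39) and *Cct2* at 11.4 against 9.06 (0.33). *Cct4* was at 12.2 against 10.2 (0.26), *Cct8* at 30.2 against 25.5 (0.24) and *Cct3* at 10.3 against 9.72 (0.08). *Cct5* was level, at 48.5 and 49.2 (-0.02). The subunits make a ring of fixed composition, and these 7 subunits ranged from -0.02 to 0.40 on the log2 scale. *Cct6a* stood apart at low means, with 0.799 against 0.368 (0.94, and 1.10 with a pseudocount of 0.01 or 1.12 with none, both past 2-fold), a difference that 11.2% of the 4179 genes near its mean reached, and GENCODE M21 does not list its gene as protein-coding and has *Psph* overlapping it on the opposite strand. *Tcp1*, *Cct7* and *Cct8* also overlap exons of genes on the opposite strand. *Cct6b*, the testis form, was at 0.014 and 0.0208.

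Of the 6 BAG genes, which release nucleotide from HSP70 or link it to other machinery, 4 were higher and 2 lower in *Mfn1*-/- oocytes, none past 2-fold, and their median was 0.30. Only 3 of the 6 had a mean of at least 1. Among the expressed genes, 65.4% were higher and the median was 0.16, so the count of 4 is near the background. *Bag5*, a regulator of PINK1, parkin and HSP70, was at 8.07 against 5.28 (0.60), a difference that 13.4% of the 1991 genes near its mean reached. *Bag1*, which couples HSP70 to the proteasome, was at 3.43 against 2.62 (0.38), and *Bag6*, which guards membrane proteins before insertion, at 0.772 against 0.651 (0.22). *Bag4*, also called SODD and known to bind death receptors, was at 2.34 against 2.72 (-0.21). *Bag2* was at 0.0547 against 0.0159 (0.42), which is past 2-fold with a pseudocount of 0.01 (1.32) or none (1.78), and *Bag3*, an HSF1 target in selective autophagy, at 0.0113 and 0.0122 in both near the lowest value of the table.

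**Figure D4:**
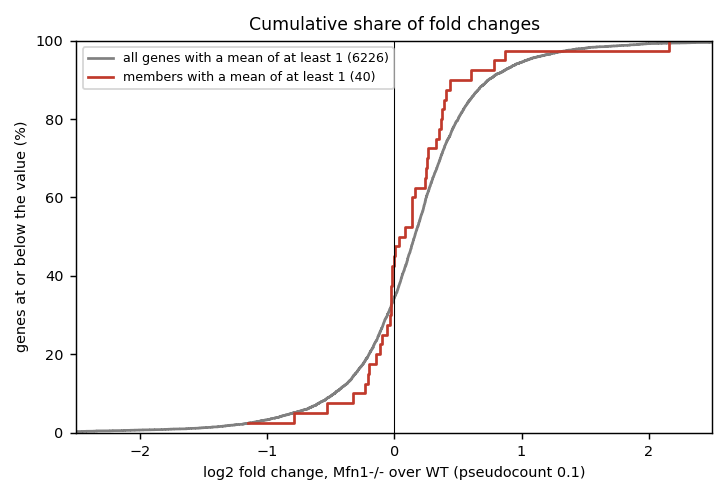
Share of genes (y axis, %) at or below each log2 fold change of Mfn1-/- over WT (x axis, pseudocount 0.1) for the 40 expressed members and all 6226 expressed genes. The curve of the members is steeper around 0 and crosses 50% at 0.06, against 0.16 for the expressed genes.

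The factors that control and assist these chaperones had a median near that of the expressed genes and above that of all genes. Of 52 genes on 3 lists of HSF factors and their regulators, HSP90 and HSP70 co-chaperones, and prefoldin with chaperonin and tubulin folding factors, 39 were higher, 12 lower and 1 equal. Higher means were also found in 65.4% of the expressed genes, and 26 of the 52 lay above the median of those genes. The 52 were not chosen by level, and 36 of them had a mean of at least 1. Of all 22877 genes, 12973 were higher and 8399 lay above that median, and the median over all genes was 0.04. The median log2 fold change of the 52 was 0.15, and 1 was past 2-fold higher (1.92%, against 4.89% of all genes) and 0 past 2-fold lower (against 2.76%). *Hsf1* was at 2.81 and 2.24 (0.31) and *Hsf2*, which acts in germ cells, at 0.166 and 0.133 (0.19). The gene past 2-fold was *Cacybp*, whose product binds HSP90 and SIAH ubiquitin ligases, at 3.05 against 1.31 (1.16). The HSP90 ATPase activator *Ahsa1* was at 31.7 against 25.1 (0.34), the HSP70-HSP90 organiser *Stip1* at 10.5 and 11 (-0.07), the immunophilin *Fkbp4* at 6.32 against 3.8 (0.72) and its paralog *Fkbp5* at 0.0881 against 0.211 (-0.73). The 6 genes of the HSF list ranged from -0.49 to 0.31, the 28 co-chaperones from -0.73 to 1.16 and the 18 prefoldin and folding factors from -0.34 to 0.67.

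Members with the heat shock element did not lie together. The 16 members with pairs but no run of 3 units ranged from -1.15 (*Dnajb4*) to 2.16 (*Hspb1*), with a median of -0.03, 5 higher and 11 lower. Only 9 of the 16 had a mean of at least 1, and the pseudocount draws the values of low genes towards 0. The 2 with a run of 3 units, *Hsph1* and *Dnajb6*, were at -0.33 and -0.02. The 41 members with neither, 21 of which had a mean of at least 1, had a median of 0.14, with 24 higher and 17 lower. The difference between these groups was not tested. *Hspa8* and both HSP90 genes are not among the 59 members with a promoter in the table used.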

How the data were processed

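The RNA-seq data covered 7 libraries of oocytes, 3 *Mfn1*-/- and 4 WT, which were assigned to genotypes from the sample titles. The methods of the study name 3 samples per genotype, while the labels list 4 WT samples. In the study's methods, cDNA was amplified with Smart-Seq2 and libraries were made with the Nextera XT kit. Per the labels and the study's methods, trimming used Cutadapt, quality filtering used the FASTX-Toolkit, and STAR aligned the reads to GRCm38/mm10. The signal in the deposited table is the authors' mean of normalized counts for each genotype, given to 3 significant digits, with a lowest value of 0.01, and a sum over the libraries. The normalization and its scale are not given in the sources used here. The table also holds the authors' own comparison of the genotypes (p-value, step-up FDR, ratio and signed fold change), which was not used. There were 0 columns of single samples, so depth and replicate spread could not be computed and no test was run.

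Log2 fold changes of *Mfn1*-/- over WT were computed from the means after adding a pseudocount of 0.1, so that folds of low genes come out too small, and a gene was counted as past 2-fold at an absolute value of at least 1. The mean of a gene over the libraries weights each genotype by its number of libraries. For 73 of 73 members the sum column matched, within 1%, the value rebuilt from both means and the 3 and 4 libraries. The code was tested on simulated data.

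The members and lists were chosen with earlier results of these data known. The genes named are all HSP90, chaperonin and BAG members, the 3 members with the highest mean in each other family, every member past 2-fold, *Hsf1*, *Hsf2* and the genes of the pathway lists past 2-fold with a mean of at least 1. Other genes are named for completeness, after their values were seen. Positions are from GENCODE M21. Transcripts were compared with blastn, counting matches of at least 300 bases at 95% identity or more. Promoter sequences are from RefSeq (GRCm38.p6), from 250 bases before to 50 bases after each start, and 59 of 73 members matched by symbol. Python 3.11.15, numpy 2.4.6, pandas 2.3.3 and matplotlib 3.10.9 were used. The alternatives were pseudocounts of 0.01 and 1 and none, minimum means of 0.1 and 1, subtraction of the median of expressed genes, equal summed means, a 1.5-fold threshold, means over genes in place of medians and, chosen after seeing the data, 2 smaller sets of members.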

Additional observations from a re-analysis of the deposited data

How the results depend on the processing

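The count of members past 2-fold depended on the pseudocount. It was 6 higher and 2 lower with a pseudocount of 0.01 and the same counts with none, and 1 and 0 with a pseudocount of 1, and the pathway lists then had 3, 3 and 0 genes past 2-fold. With a minimum mean of 1, 1 member was higher, and with a 1.5-fold threshold 7 members were higher, 3 lower and 5 pathway genes past it. *Hspb1* was past 2-fold in each of these settings. The median of the members, 0.02, changed sign to -0.14 when the median of the expressed genes was subtracted and to -0.034 with equal summed means, so the direction of the members as a group rests on the scaling, and their mean over genes was 0.12. The median of the chaperonin subunits was 0.13 and 0.16 in those 2 scalings. The smaller sets of members, without *Hspbp1*, *Hspbap1* and *Hspb11* or without those of the endoplasmic reticulum and mitochondrion, moved no count by more than 1.5-fold and no median by more than 0.1. No paired analysis was possible because the table used holds 1 mean per genotype, and for the same reason no library could be left out.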

Other observations

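Several members are best known from the testis, and their values are given here side by side without a comparison between genes. *Dnajb3* and *Hspa2* had a higher mean in *Mfn1*-/- oocytes (log2 fold changes of 2.09 and 0.79), *Hspa4l* (-0.09) and *Dnajc5g* (-0.10) were slightly lower, and *Dnajc5b* was lower (-0.59). *Cct6b* had a log2 fold change of -0.08 with the pseudocount of 0.1 and of -0.57 without one. *Dnajb13* was at 0.0126 in *Mfn1*-/- and 0.0142 in WT oocytes. Exons of 23 of the 73 members overlap a gene on the opposite strand and those of 9 a gene on the same strand.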
